A study of Mus musculus with 12 samples.

Results

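The genes described here encode 9 proteins of pancreatic islet cells that the immune system attacks in autoimmune diabetes: G6pc2, Slc30a8, Ptprn, Ptprn2, Gad1, Gad2, Ica1, Chga and Iapp. They were chosen by name, as the rows of the deposited table whose Ensembl gene identifier carries one of these symbols, and they make up 9 of the 52962 gene identifiers in it. RNA was sequenced from islet cells of the female NOD mouse, which spontaneously becomes diabetic through autoimmunity, at 4 and 8 weeks of age. The 4 groups of 3 samples each crossed the sorted fraction, β-cells or non-β-cells, with age. All groups share the NOD genotype, and no other strain is among them. The study's figure legends give each sample as a pool of 3 mice. Its methods state that islets were cultured overnight, dispersed with trypsin and sorted by forward scatter and endogenous fluorescence with CD45-positive leukocytes removed. A sorted fraction is thus an enrichment rather than a pure cell type, and non-β-cells are a mixture of the other endocrine cells and whatever else passed the gates.

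The proteins fall into a few roles. Ptprn (IA-2) and Ptprn2 (phogrin) are receptor-type tyrosine phosphatase relatives that span the membrane of dense-core secretory granules, Slc30a8 (ZnT8) carries zinc into insulin granules, and Chga (chromogranin A) and Iapp (amylin) are cargo secreted from granules. G6pc2 (IGRP) is a glucose-6-phosphatase catalytic subunit of the endoplasmic reticulum and a classical target of CD8 T cells in NOD mice, Gad1 (GAD67) and Gad2 (GAD65) make the transmitter GABA from glutamate, and Ica1 (ICA69) is a BAR domain protein of the Golgi and granule membranes. Autoantibodies or T cells against several of these proteins are used to follow the disease in patients and in the NOD mouse.

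Total estimated counts ran from 13754913 to 27040436 per sample. Levels are given as CPM, counts relative to the TMM-scaled library size, and a gene was tested if it exceeded 1 CPM in at least 3 samples, which 15598 genes did. All 9 autoantigen genes passed this filter, Gad2 only through the non-β-cells at 8 weeks. Adjusted p-values are from limma-voom with Benjamini-Hochberg adjustment across the tested genes, called when under 0.05. The labels matched the markers of the fractions: all 7 markers in a β-cell list (Ins1, Ins2, Mafa, Ucn3, Slc2a2, Nkx6-1, Pdx1) were higher, and all 7 in an α-cell list lower, in β-cells at both ages. Of 12 leukocyte markers, 2 could be tested (Cd68 and Cd79a), both were higher in β-cells at both ages, and the list summed to 52.3 to 53.5 CPM at 4 weeks and 70.1 to 77.8 CPM at 8 weeks there, against 7.98 to 13.6 CPM and 15.5 to 20.4 CPM for non-β-cells. Ptprc, which encodes CD45, had at most 16 counts in any sample. Marker levels within the fractions differed between the ages. The summed level of the α-cell list in β-cells was 5759 to 9482 CPM at 4 weeks and 1673 to 2727 CPM at 8 weeks, with 6 of its 7 genes lower at 8 weeks. The β-cell list summed to 32081 to 58467 CPM in β-cells at 4 weeks and to 87691 to 92465 CPM at 8 weeks, with 5 of 7 genes higher. In non-β-cells, the 6 endothelial markers summed to 39.7 to 80.6 CPM at 4 weeks and 346 to 984 CPM at 8 weeks, all 6 higher.

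The 2 libraries from 4 weeks that are numbered replicate 3 stood apart from the rest of their groups. Scatter between replicates, as chi-square per degree of freedom over genes, was 89.9 and 96.8 for β-cell replicate 3 against the other 2 at 4 weeks, against 27.1 between those 2. The corresponding values for non-β-cells were 40.0 and 48.4, against 12.4. Non-β-cell replicate 1 of 8 weeks also stood apart, at 24.9 and 34.8 against the other 2 samples, which differed by 9.81. Both 4-week libraries numbered 3 held more counts of short transcripts and fewer of long ones. In β-cells, the 3850 genes with the shortest transcripts (at most 1846 bases) were higher in replicate 3 by a median of 0.49 on the log2 scale than in the other 2 samples, and the 3850 with the longest (at least 4562 bases) differed by a median of -0.46. In non-β-cells the medians were 0.31 and -0.33. Among the autoantigen genes in β-cell replicate 3, Iapp, with a transcript of 839 bases, stood 0.66 above the other 2 samples on this scale, Ica1 0.39 and Chga 0.37 above, and Ptprn2, with 3201 bases, at -0.92. Ptprn, with 3554 bases, was at -0.04, Gad1, with 3355, at -0.11, Slc30a8 at -0.06 and G6pc2 at 0.14. Gad2, with 0 counts there, was at -1.89. In non-β-cell replicate 3, Slc30a8, with 1971 bases, was at -0.57, Gad1 at -0.45 and Ptprn2 at -0.31. Iapp was at 0.41 there, Gad2 at 0.35, Chga at 0.30, Ica1 at 0.22, Ptprn at 0.05 and G6pc2 at 0.04. Results that rest on these libraries are given with and without both of them where that moved the value or the call, and the part of transcript length in those results was not tested.

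The first question was which autoantigen genes distinguish β-cells from the other islet cells. At 8 weeks, 4 of the 9 genes were higher in β-cells (Gad1, G6pc2, Iapp and Chga) and 1 was lower (Gad2, which entered the test only through the non-β-cells in which it was higher, so that its direction was fixed by the filter), against 49.2% of all tested genes called in either direction, 23.6% higher and 25.6% lower. At 4 weeks, 3 were higher (Gad1, G6pc2 and Iapp) and 1 lower (Ptprn), against 48.5% of all tested genes called, 24.9% higher and 23.7% lower. The samples of the 2 fractions did not overlap for 4 of the 9 genes at 4 weeks and for 7 at 8 weeks, against 53.1% and 64.9% of all tested genes. The share of autoantigen genes called was thus near that of genes in general. Among those higher in β-cells, the size of the difference set Gad1, G6pc2 and Iapp apart. Of all tested genes, 3464 at 4 weeks and 3742 at 8 weeks were called with a difference of at least 2-fold in either direction. The median difference over the 9 genes was 0.01 at 4 weeks and 0.17 at 8 weeks on the log2 scale, against 0.00 and 0.01 for all tested genes. The β-cell mean was 33.7 times the non-β-cell mean for Gad1, 14.1 times for G6pc2 and 6.95 times for Iapp at 4 weeks, and 26.6, 19.3 and 6.42 times at 8 weeks. For Chga it was 1.19 and 1.47 times, and the 2 phosphatases, Slc30a8 and Ica1 lay between 0.739 and 1.12 times.

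The second question was what changed between 4 and 8 weeks. In β-cells 2 of the 9 genes rose (G6pc2 and Ptprn) and 1 fell (Ica1), against 17.9% of all tested genes called in either direction, 8.59% higher and 9.35% lower. In non-β-cells 1 rose (G6pc2), against 16.4% of all tested genes called, 11.6% higher and 4.8% lower. The age change differed between the fractions for 1 of the 9, Ptprn, against 5.13% of all tested genes called for this term, 1.8% higher and 3.33% lower. In β-cells the ages did not overlap for 6 of the 9 genes, 5 of them higher at 8 weeks, against 40.3% of all tested genes without overlap. In non-β-cells they did not overlap for 3 of the 9, against 32.8%. The median age difference of the 9 genes was 0.21 for β-cells and 0.18 for non-β-cells, against 0.02 and 0.01 for all tested genes. Without both 4-week libraries numbered 3, the count in β-cells was 6 of 9 genes, with Slc30a8, Chga and Iapp added, against 22.7% of the 15431 genes tested in that fit, and that in non-β-cells was 2, with Iapp added, against 22.3%. The fall of the α-cell list and the rise of the β-cell list in β-cells ran beside these changes. So did a rise of the 6 acinar markers, which summed to 87.5 to 171 CPM at 4 weeks and 395 to 827 CPM at 8 weeks for β-cells, with 4 of 6 higher, and to 34.2 to 85.5 CPM and 186 to 670 CPM for non-β-cells, with 3 of 6 higher. The part of these lists was not tested. In sorted bulk samples, fewer cells of a type and less RNA per cell cannot be told apart.

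**Figure D1:**
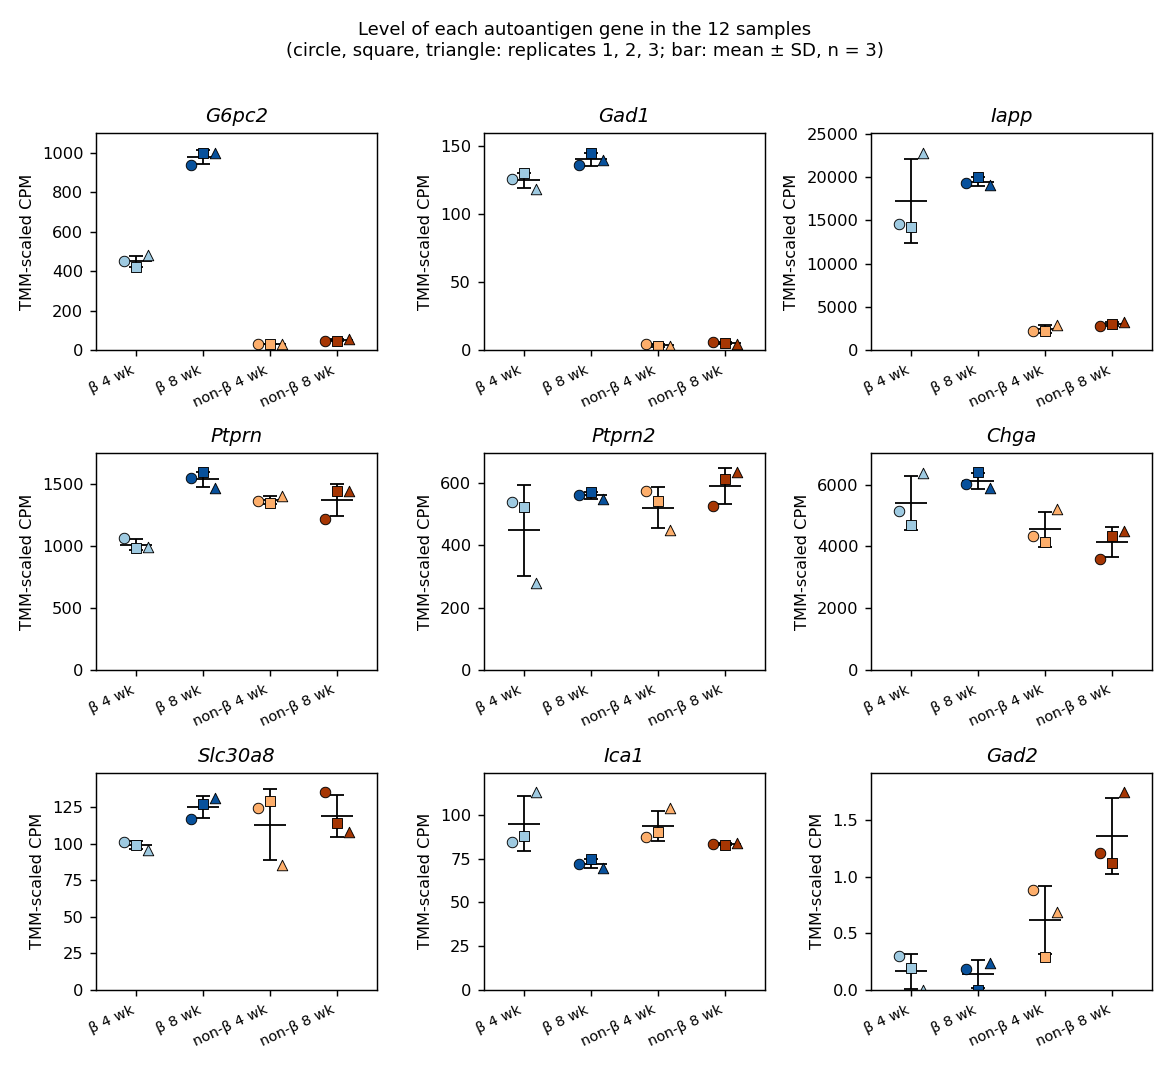
TMM-scaled CPM (y axis, each panel from 0) of the 9 genes in β-cells and non-β-cells at 4 and 8 weeks; circles, squares and triangles are replicates 1, 2 and 3, and bars are the mean ± SD (n = 3). G6pc2, Gad1 and Iapp were far higher in β-cells, G6pc2 and Ptprn rose with age in β-cells, and the triangle of the 4-week groups lies apart for Ptprn2, Iapp and Ica1 in β-cells and for Slc30a8 in non-β-cells.

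G6pc2 (ENSMUSG00000005232, GRCm38 chr2:69211073-69227841, plus strand) had both a large β-cell difference and the largest age change of the 9 genes in β-cells. In β-cells its level was 451, 423 and 481 CPM in replicates 1, 2 and 3 at 4 weeks, and 940, 1002 and 998 CPM at 8 weeks. In non-β-cells it was 32.4, 31.2 and 32.7 CPM at 4 weeks, and 48.9, 47.8 and 56.0 CPM at 8 weeks. No 2 of the 4 groups overlapped, and every 8-week sample was above every 4-week sample of its fraction. The log2 difference between β-cells and non-β-cells was 3.81 (SE 0.10, limma-voom adjusted p = 1.51e-10) at 4 weeks and 4.27 (SE 0.10, limma-voom adjusted p = 2.60e-11) at 8 weeks. From 4 to 8 weeks G6pc2 rose by 1.12 in β-cells (SE 0.09, limma-voom adjusted p = 5.44e-06), or 2.17 times in the mean. It also rose in non-β-cells, by 0.66 (SE 0.11, limma-voom adjusted p = 0.000668). The age by cell type term, which subtracts the non-β-cell age difference from the β-cell one, was 0.46 (95% interval 0.15 to 0.76). It missed the threshold (limma-voom adjusted p = 0.0854) and passed it without both 4-week libraries numbered 3 (0.48, limma-voom adjusted p = 0.0346).

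The level of G6pc2 in non-β-cells can be set beside that of other β-cell genes there. The non-β-cell mean of G6pc2 was 7.11% of the β-cell mean at 4 weeks and 5.19% at 8 weeks. For Ins2 the corresponding values were 1.72% and 2.45%, for Ins1 2.34% and 3.09%, for Slc2a2, the β-cell glucose transporter, 2.39% and 3.04%, for Ucn3 2.53% and 1.85%, and for Mafa 4.21% and 2.76%. The other 2 genes of the β-cell list were higher, Nkx6-1 at 30.9% and 13.5% and Pdx1 at 57.2% and 32.9%. In this measure G6pc2 was thus above 5 and below 2 of the 7 β-cell genes at both ages, and Gad1, at 2.96% and 3.76%, also lay within the range of the list. The summed level of the β-cell list in non-β-cells was 684 to 1035 CPM at 4 weeks and 2141 to 2544 CPM at 8 weeks. Most of it came from Ins2 (mean 568 CPM at 4 weeks and 1587 CPM at 8 weeks) and Ins1 (203 and 735 CPM). Of the 7 genes, 2 were called higher at 8 weeks in non-β-cells and 1 lower. The part of this list in the rise of G6pc2 in non-β-cells was not tested.

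The sequences before the transcription starts of G6pc2, Iapp and Chga are shown because these genes were higher in β-cells at 8 weeks and their RefSeq start lies within 28 bases of the start of the gene model used here. That of Ptprn2, which did not pass in any comparison, is shown beside them. Each is the 250 bases before the RefSeq start (GRCm38.p6, plus strand), 5′ to 3′, with E-box letters (CANNTG, on either strand) in capitals.
G6pc2, chr2:69210823-69211072: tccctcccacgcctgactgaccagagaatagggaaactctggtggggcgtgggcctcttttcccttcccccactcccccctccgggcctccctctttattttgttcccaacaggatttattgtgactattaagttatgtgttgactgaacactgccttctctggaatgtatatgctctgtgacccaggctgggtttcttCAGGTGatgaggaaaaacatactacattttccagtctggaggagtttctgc
Iapp, chr6:142298175-142298424: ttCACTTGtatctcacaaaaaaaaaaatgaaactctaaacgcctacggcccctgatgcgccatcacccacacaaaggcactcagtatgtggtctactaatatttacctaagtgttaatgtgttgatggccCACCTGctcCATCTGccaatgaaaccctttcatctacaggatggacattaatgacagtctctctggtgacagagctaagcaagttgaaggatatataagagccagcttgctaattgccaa
Chga, chr12:102554691-102554940: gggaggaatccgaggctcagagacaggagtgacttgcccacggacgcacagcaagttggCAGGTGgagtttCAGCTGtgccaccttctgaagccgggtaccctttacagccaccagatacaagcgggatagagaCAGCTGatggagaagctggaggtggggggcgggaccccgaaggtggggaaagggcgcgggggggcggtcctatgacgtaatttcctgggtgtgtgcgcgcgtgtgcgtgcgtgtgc
Ptprn2, chr12:116485470-116485719: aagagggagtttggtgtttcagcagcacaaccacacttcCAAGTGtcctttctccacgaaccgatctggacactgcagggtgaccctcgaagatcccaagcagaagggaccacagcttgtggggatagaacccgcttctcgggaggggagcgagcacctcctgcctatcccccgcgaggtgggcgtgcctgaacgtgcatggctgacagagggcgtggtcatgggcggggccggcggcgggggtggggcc
The E-box letters occurred 1 time for G6pc2, 51 bases before the start, 3 times for Iapp, 3 times for Chga and 1 time for Ptprn2, and 66.2% of 32851 RefSeq windows of this length hold at least 1. The homeodomain core letters TAAT, searched on both strands, occurred 5 times for Iapp, 1 time each for G6pc2 and Chga and 0 times for Ptprn2, and 54.9% of windows hold them. The letters TGACGTCA of a cyclic AMP response element and TATAAA occurred in none of the 4 windows, against 1.55% and 12.4% of all windows. Only these letters were searched, so variants of them with a changed base were not counted. Such matches describe the letters only.

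Of the GABA-synthesizing enzymes, Gad1 was higher in β-cells at both ages and Gad2 had at most 34 counts in any sample. Gad1 (ENSMUSG00000070880, chr2:70553072-70602014, plus strand) was at 126, 130 and 119 CPM in 4-week β-cells and at 136, 145 and 139 CPM in 8-week ones. In the other fraction it was at 4.90, 3.28 and 2.91 CPM at 4 weeks and at 5.84, 5.53 and 4.42 CPM at 8 weeks. The β-cell samples lay far above the non-β-cell samples, and the log2 difference was 5.07 (SE 0.20, limma-voom adjusted p = 9.42e-10) at 4 weeks and 4.73 (SE 0.18, limma-voom adjusted p = 7.02e-10) at 8 weeks. The 3 β-cell samples of 8 weeks were above those of 4 weeks, but the age difference of 0.17 (95% interval -0.04 to 0.38) did not pass (limma-voom adjusted p = 0.270). In non-β-cells the age difference was 0.50 (95% interval -0.05 to 1.05), with a limma-voom adjusted p of 0.221 and a DESeq2 adjusted p of 0.0373. Without both 4-week libraries numbered 3 it was 0.36 (limma-voom adjusted p = 0.393). Genes on the opposite strand overlap Gad1 (Gad1os), Ptprn (Gm28294), Iapp (Slco1a5) and Ptprn2, and whether strand was used in the authors' quantification is not given in the sources used here.

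Gad2 (ENSMUSG00000026787, chr2:22622205-22693874, plus strand), the form that is the main GAD autoantigen in human islets, was found at a few counts only. Its counts in β-cells were 6, 5 and 0 at 4 weeks and 4, 0 and 6 at 8 weeks, and those in non-β-cells were 23, 6 and 14 at 4 weeks and 28, 15 and 34 at 8 weeks. A count of 0 allows up to 0.138 CPM in the β-cell library of 4 weeks and 0.113 CPM in that of 8 weeks, taking 3 counts as the limit and covering counting error only. At 8 weeks every non-β-cell sample was above every β-cell sample, with a log2 difference of -3.84 (SE 1.09, limma-voom adjusted p = 0.0105), but the gene entered the test only through the non-β-cells that were higher. In β-cells at 8 weeks Gad1 stood at 123 CPM per kilobase and Gad2 at 0.025 CPM per kilobase of transcript.

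Iapp (ENSMUSG00000041681, chr6:142298423-142303961, plus strand) had the highest mean level per transcript length of the 9 genes in every group. In β-cells it was at 14618, 14242 and 22837 CPM at 4 weeks and at 19267, 20056 and 19123 CPM at 8 weeks. Non-β-cell levels were 2279, 2194 and 2971 CPM at 4 weeks and 2785, 3020 and 3296 CPM at 8 weeks. The fractions did not overlap, with a log2 difference of 2.77 (SE 0.17, limma-voom adjusted p = 4.50e-08) at 4 weeks and 2.69 (SE 0.17, limma-voom adjusted p = 5.03e-08) at 8 weeks. Its non-β-cell mean was 14.4% and 15.6% of the β-cell mean, below Pdx1 at both ages and below Nkx6-1 at 4 weeks, and above the other genes of the β-cell list. Amylin is also made by δ-cells in rodents, and the 3 δ-cell markers (Sst, Hhex and Rbp4) summed to 5287 to 7998 CPM in 4-week non-β-cells and 8181 to 11659 CPM at 8 weeks. Their part in the non-β-cell level of Iapp was not tested.

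Whether Iapp changed with age depended on the 4-week libraries numbered 3. With all 12 samples the age differences of 0.21 in β-cells (95% interval -0.16 to 0.59, limma-voom adjusted p = 0.440) and 0.30 in non-β-cells (95% interval -0.06 to 0.66, limma-voom adjusted p = 0.263) did not pass. Without both libraries, Iapp rose by 0.43 in β-cells (limma-voom adjusted p = 0.000953) and by 0.44 in non-β-cells (limma-voom adjusted p = 0.000864).

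Chga (ENSMUSG00000021194, chr12:102554969-102565028, plus strand), the source of peptides seen by diabetogenic CD4 T cells of NOD mice, was abundant in both fractions. In β-cells it was at 5142, 4707 and 6371 CPM at 4 weeks and at 6028, 6392 and 5898 CPM at 8 weeks. Levels in non-β-cells were 4327, 4145 and 5203 CPM at 4 weeks and 3604, 4329 and 4500 CPM at 8 weeks. The fractions overlapped at 4 weeks and not at 8 weeks. Chga was higher in β-cells by 0.56 at 8 weeks (SE 0.13, limma-voom adjusted p = 0.00363), while the difference of 0.24 at 4 weeks (95% interval -0.05 to 0.53) did not pass (limma-voom adjusted p = 0.153). With replicate number as a block in the fit, the 4-week difference passed (0.24, limma-voom adjusted p = 0.0129). The test of whether the 4-week and 8-week differences differ from each other, the age by cell type term, gave 0.32 (95% interval -0.09 to 0.73) and did not pass (limma-voom adjusted p = 0.395). Its age difference in β-cells was 0.19 (limma-voom adjusted p = 0.378) and reached 0.31 (limma-voom adjusted p = 0.0242) without both 4-week libraries numbered 3.

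Ptprn (ENSMUSG00000026204, chr1:75247027-75264502, minus strand) was the only one of the 9 genes whose age change passed the test of a difference between the fractions. In β-cells it was at 1065, 983 and 994 CPM at 4 weeks and at 1553, 1595 and 1474 CPM at 8 weeks. The non-β-cell samples were at 1367, 1347 and 1404 CPM at 4 weeks and at 1220, 1447 and 1444 CPM at 8 weeks. All β-cell samples were below all non-β-cell samples at 4 weeks and above them at 8 weeks. Ptprn rose by 0.60 in β-cells (SE 0.09, limma-voom adjusted p = 0.000859), or 1.52 times in the mean, and its difference in non-β-cells was -0.01 (95% interval -0.21 to 0.20). The age by cell type term was 0.61 (SE 0.13, limma-voom adjusted p = 0.0182). At 4 weeks Ptprn was lower in β-cells, with a log2 difference of -0.44 (SE 0.09, limma-voom adjusted p = 0.00204), and at 8 weeks the difference of 0.17 (95% interval -0.03 to 0.38) did not pass (limma-voom adjusted p = 0.147). Leaving out β-cell replicate 2 of 4 weeks, β-cell replicate 1 or 2 of 8 weeks or non-β-cell replicate 1 of 4 weeks ended the call of the age by cell type term, with limma-voom adjusted p from 0.0565 to 0.0688.

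Ptprn2 (ENSMUSG00000056553, chr12:116485720-117276849, plus strand) passed in none of the comparisons. In β-cells it was at 539, 524 and 281 CPM at 4 weeks and at 562, 572 and 549 CPM at 8 weeks, and the low value is that of the library numbered 3. Non-β-cell samples were at 574, 542 and 448 CPM at 4 weeks and at 525, 613 and 634 CPM at 8 weeks. The spread of the 4-week samples left wide intervals, from -0.05 to 0.82 for the age difference of 0.38 in β-cells, and from -0.71 to 0.16 for the β-cell difference of -0.27 at 4 weeks. Without β-cell replicate 3 of 4 weeks these differences were 0.08 (limma-voom adjusted p = 0.701) and 0.04 (limma-voom adjusted p = 0.814), and over all fits without 1 sample they ran from 0.08 to 0.53 and from -0.44 to 0.04. Without both 4-week libraries numbered 3 they were 0.08 (limma-voom adjusted p = 0.540) and -0.06 (limma-voom adjusted p = 0.569). At 8 weeks, where the samples lay closer, the β-cell difference was -0.07 (95% interval -0.51 to 0.37). The fit shares the spread of a gene over all 4 groups, so this interval also holds the spread of the 4-week samples, and the SE was 0.20 at both ages. Without both 4-week libraries numbered 3 the 8-week difference was -0.07 with an SE of 0.07 (limma-voom adjusted p = 0.422).

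Slc30a8 (ENSMUSG00000022315, chr15:52295553-52335798, plus strand) passed in no comparison with all 12 samples. In β-cells it was at 101, 99.3 and 95.9 CPM at 4 weeks and at 117, 127 and 131 CPM at 8 weeks. In non-β-cells it was at 124, 129 and 85.2 CPM at 4 weeks and at 135, 114 and 108 CPM at 8 weeks. The 3 β-cell samples of 8 weeks were above those of 4 weeks, with a difference of 0.34 (95% interval 0.03 to 0.65) that did not pass over all tested genes (limma-voom adjusted p = 0.130). Without both 4-week libraries numbered 3 it passed (0.32, limma-voom adjusted p = 0.0354), and at 4 weeks Slc30a8 was then lower in β-cells (-0.33, limma-voom adjusted p = 0.0222; with all samples -0.17, limma-voom adjusted p = 0.354). Leaving out non-β-cell replicate 3 of 4 weeks alone gave both calls too (0.34, limma-voom adjusted p = 0.0362, and -0.35, limma-voom adjusted p = 0.0220). At 8 weeks the difference between the fractions was 0.08 (95% interval -0.24 to 0.39).

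Ica1 (ENSMUSG00000062995, chr6:8630527-8778488, minus strand) was the only one of the 9 genes to fall with age. In β-cells it was at 84.3, 87.7 and 113 CPM at 4 weeks and at 72.0, 74.9 and 69.4 CPM at 8 weeks. In non-β-cells it was at 87.2, 90.0 and 104 CPM at 4 weeks and at 83.3, 82.5 and 84.0 CPM at 8 weeks. The ages did not overlap in either fraction, and the library numbered 3 was the highest at 4 weeks in both. Ica1 fell by 0.39 in β-cells (SE 0.12, limma-voom adjusted p = 0.0370), while its difference of -0.16 in non-β-cells (95% interval -0.42 to 0.09) did not pass (limma-voom adjusted p = 0.411). Between the fractions its difference was 0.01 (95% interval -0.24 to 0.26) at 4 weeks and -0.21 (95% interval -0.46 to 0.05, limma-voom adjusted p = 0.163) at 8 weeks. At 8 weeks every β-cell sample was below every non-β-cell sample. The 8-week difference passed with only the 8-week groups in the fit (-0.22, limma-voom adjusted p = 0.0333) and with replicate number as a block (-0.21, limma-voom adjusted p = 0.0433). It also passed without both 4-week libraries numbered 3 (-0.21, limma-voom adjusted p = 0.0183). Without both of these libraries the fall in β-cells was by 0.26 and still passed (limma-voom adjusted p = 0.0270). The age call in β-cells was lost in 9 of 22 alternative fits, among them those without β-cell replicate 3 of 4 weeks (-0.26, limma-voom adjusted p = 0.0901), without β-cell replicate 1, 2 or 3 of 8 weeks (0.0974, 0.0795 and 0.101) and without non-β-cell replicate 2 or 3 of 8 weeks (0.0530 and 0.0502).

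**Figure D2:**
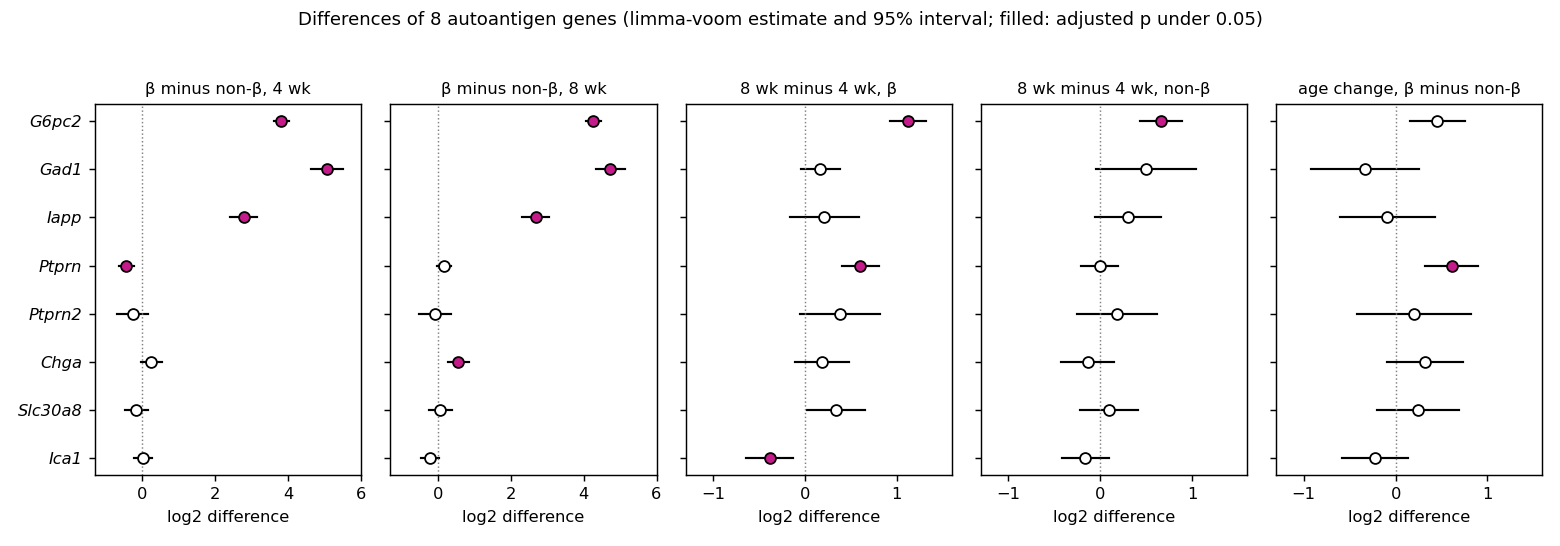
log2 differences (x axis) of 8 autoantigen genes (y axis; Gad2 is left out for its wide intervals) between fractions at each age, between ages in each fraction, and between the 2 age changes; lines are 95% intervals and filled points have a limma-voom adjusted p under 0.05. Gad1, G6pc2 and Iapp lie from 2.69 to 5.07 in the comparisons of fractions, and the age changes lie between -0.39 and 1.12.

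**Figure D3:**
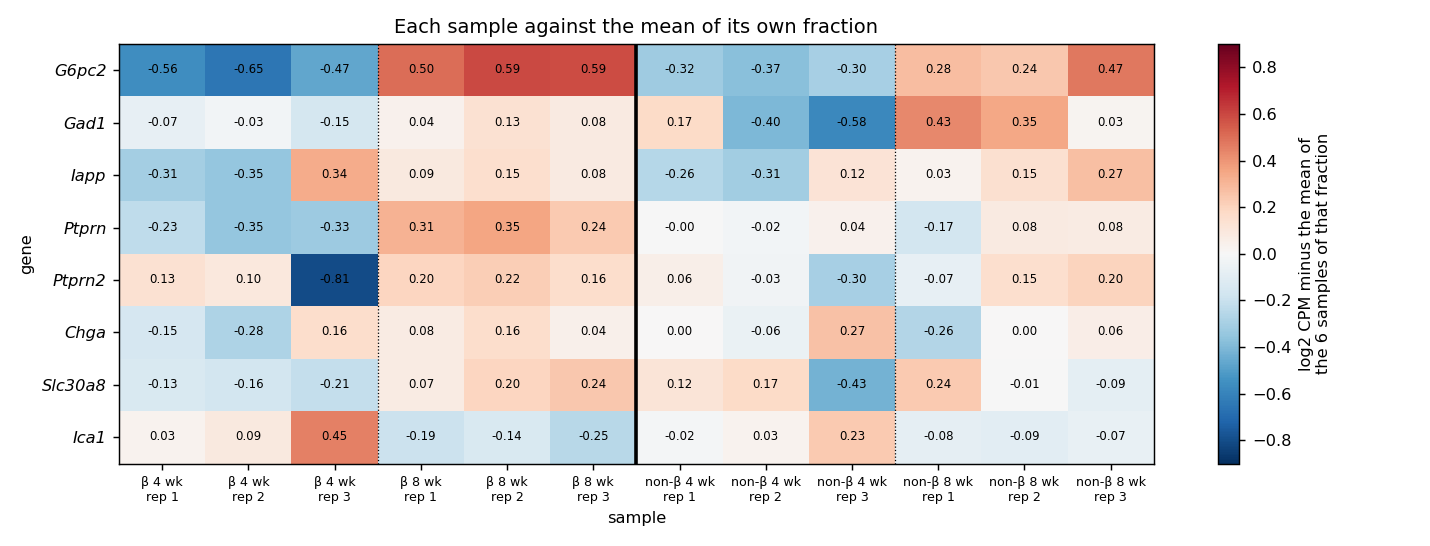
log2 CPM of 8 autoantigen genes (rows) in each of the 12 samples (columns), each as the difference from the mean of the 6 samples of its own fraction; red is above and blue below that mean. G6pc2 is below the mean in all 4-week samples and above it in all 8-week samples of both fractions, Ptprn shows this split in β-cells only, and Ptprn2 in β-cell replicate 3 of 4 weeks is the lowest value, at -0.81.

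Together the 9 genes took 2.12% to 3.13% of scaled counts in β-cells at 4 weeks and 2.84% to 3.00% at 8 weeks, most of it from Iapp. In non-β-cells they took 0.848% to 1.03% and 0.841% to 1.01%. Without Iapp, the other 8 summed to 6955 to 8454 CPM in β-cells at 4 weeks and 9259 to 9909 CPM at 8 weeks, which do not overlap. In non-β-cells the 8 genes summed to 6288 to 7281 CPM at 4 weeks and 5623 to 6832 CPM at 8 weeks, which overlap.

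To order the genes by level, CPM was divided by the median length of the gene's coding transcripts. In β-cells at 8 weeks the order was Iapp (23221 CPM per kilobase), Chga (3243), Ptprn (3174), G6pc2 (538), Ptprn2 (175), Gad1 (123), Slc30a8 (63.4), Ica1 (63.4) and Gad2 (0.025). Chga at 3132 to 3395 and Ptprn at 3035 to 3286 overlapped, as did Slc30a8 at 59.2 to 66.6 and Ica1 at 61.0 to 65.8, and the other neighbours in this order did not. At 4 weeks the β-cell order had Ica1 (83.4) above Slc30a8 (50.1). In non-β-cells at 8 weeks G6pc2 and Gad1 stood near the end, at 28.0 and 4.63, with Ptprn (2822), Chga (2201) and Ptprn2 (184) after Iapp (3616). The place of Ptprn rests on the length used, since its annotated coding transcripts include short ones with a median of 485.5 bases while the longest has 3554. With the longest transcript Ptprn stood at 434 CPM per kilobase and G6pc2 at 518 in β-cells at 8 weeks, and Gad1 at 41.7 was below Slc30a8.

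**Figure D4:**
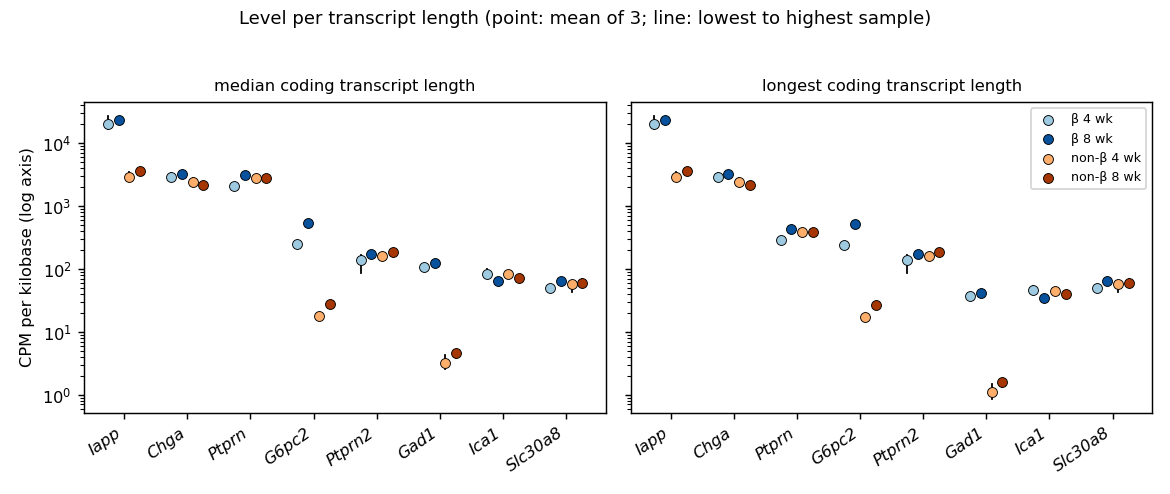
CPM per kilobase (y axis, log scale) of 8 autoantigen genes in the 4 groups, with CPM divided by the median (left) or the longest (right) coding transcript length; points are means of 3 samples and lines run from the lowest to the highest sample. Iapp is highest in every group, the β-cell and non-β-cell points separate widely for G6pc2, Gad1 and Iapp, and Ptprn moves most between the panels.

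The genes whose levels followed each autoantigen gene most closely were listed by Pearson correlation of log2 CPM over the 12 samples, among 10174 tested genes with a mean log2 CPM of at least 3. For G6pc2 they were Mafa (r = 0.998), Pcsk1 (0.996) and Rasgrf1 (0.995), and for Gad1 they were Glp1r (0.997), Sytl4 (0.995) and Prss53 (0.994). For Iapp they were Npepl1 (0.996), Rbm17 and Adh1, and for Chga they were Sdhc (0.979), Cox8a (0.978) and Gpx2 (0.977). The genes nearest to Ica1 were Atf4 (0.968), Cfap20 (0.943) and Apex1 (0.942), those nearest to Ptprn were 2810402E24Rik (0.939), Sec23b (0.934) and Fam20c (0.921), and those nearest to Ptprn2 were Zc3h7b (0.967), Rgp1 (0.967) and Gm49450 (0.937). Slc30a8 had Nvl (0.921), Atl3 (0.900) and Mbnl1 (0.887), and Gad2, at its low counts, had Unc5a (0.949), Apaf1 (0.941) and Smurf1 (0.935). The points share the 2 fractions, the 2 ages and the 4-week libraries numbered 3, so these values are descriptions.

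Other reported islet autoantigens are a useful setting for the 9. Of 18 such genes 16 were tested, Gfap and S100b being too low. At 8 weeks 6 were higher in β-cells and 3 lower, against 49.2% of all tested genes called, with a median of 0.19 against 0.01. Ins2 (5.36, limma-voom adjusted p = 8.95e-10), Ucn3 (5.73, limma-voom adjusted p = 1.47e-09) and Ins1 (5.02, limma-voom adjusted p = 2.07e-09) exceeded Gad1 in size, and Pcsk2, a prohormone convertase, was lower in β-cells (-1.20, limma-voom adjusted p = 6.96e-06). From 4 to 8 weeks 4 rose and 2 fell in β-cells, against 17.9% of all tested genes called. The mitochondrial chaperone Hspd1 fell by 0.99 (limma-voom adjusted p = 5.64e-05), while Ins1 rose by 1.51 (limma-voom adjusted p = 0.000681), Ins2 by 1.03 (limma-voom adjusted p = 0.00688) and the vesicle protein Vamp2 by 0.42 (limma-voom adjusted p = 0.00799). The age by cell type term passed for Hspd1 (-0.88, limma-voom adjusted p = 0.00489) and the endoplasmic reticulum chaperone Hspa5 (-0.70, limma-voom adjusted p = 0.0283), both opposite in sign to Ptprn.

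Among the partners of G6pc2, Slc37a4, which carries glucose 6-phosphate into the endoplasmic reticulum, was higher in β-cells at 8 weeks by 1.64 (SE 0.18, limma-voom adjusted p = 1.08e-05) and rose in β-cells by 0.63 (limma-voom adjusted p = 0.0170). Of 5 genes of the glucose-6-phosphatase system 3 were tested, and 2 were higher in β-cells at 8 weeks, the other being G6pc3 (0.49, limma-voom adjusted p = 0.0140). Here and for the lists below, counts at 8 weeks stand against 23.6% of all tested genes called higher in β-cells and 25.6% lower. Counts with age in β-cells stand against 8.59% higher and 9.35% lower. G6pc, the liver form, had 0 counts in every sample. Slc37a1, a relative of Slc37a4, rose in non-β-cells (0.55, limma-voom adjusted p = 0.00207).

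Of 21 other zinc transporters, 18 were tested, and at 8 weeks 5 were higher and 5 lower in β-cells. Slc39a6 was higher (0.88, limma-voom adjusted p = 1.35e-05), and Slc39a11 (-0.89, limma-voom adjusted p = 0.000151), Slc39a13 (-0.78, limma-voom adjusted p = 0.000173) and Slc39a4 (-4.06, limma-voom adjusted p = 0.000185) were lower. Slc39a4 exceeded 1 CPM in non-β-cells of 8 weeks alone, so it could enter the test only as a gene lower in β-cells, and Slc30a2, among the 5 higher, exceeded 1 CPM in β-cells alone. With age in β-cells 2 rose and 3 fell, led by Slc30a5, a zinc carrier of the early secretory pathway (-0.51, limma-voom adjusted p = 0.00359), and Slc39a6 (0.45, limma-voom adjusted p = 0.00819).

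The granins, relatives of Chga in granule cargo, lay on both sides of 0. Of 6, at 8 weeks 2 were higher in β-cells, Scg3 (1.03, limma-voom adjusted p = 1.60e-06) and Scg2 (0.78, limma-voom adjusted p = 2.98e-05), and 2 were lower, Pcsk1n (-1.62, limma-voom adjusted p = 3.82e-06) and Scg5 (-0.58, limma-voom adjusted p = 0.00886). With age in β-cells Scg3 (0.43, limma-voom adjusted p = 0.00807) and Chgb (0.50, limma-voom adjusted p = 0.0151) rose. The age by cell type term passed for Scg3 (0.69, limma-voom adjusted p = 0.00939) and Vgf (0.97, limma-voom adjusted p = 0.0118), and Vgf fell by 0.95 in non-β-cells (limma-voom adjusted p = 0.000378).

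Around Gad1, 5 of 11 genes of GABA synthesis, breakdown and transport were tested. Abat, the transaminase that breaks down GABA, rose in β-cells by 0.71 (limma-voom adjusted p = 0.00830), and Aldh5a1, which oxidises its product, fell by 0.44 (limma-voom adjusted p = 0.0250). The vesicular GABA transporter Slc32a1 had at most 3 counts in any sample. Of 14 GABA receptor genes 4 were tested. Gabbr2, a subunit of the GABA-B receptor, was higher in β-cells at 8 weeks by 2.82 (limma-voom adjusted p = 3.54e-07), while its partner Gabbr1 was lower (-0.91, limma-voom adjusted p = 7.41e-05), and both rose with age in β-cells (0.63, limma-voom adjusted p = 0.0340, and 0.55, limma-voom adjusted p = 0.0174).

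Of 4 BAR domain relatives of Ica1, 3 were higher in β-cells at 8 weeks, led by its closest relative Ica1l (2.56, limma-voom adjusted p = 1.90e-07), and Arfip1 fell with age in β-cells (-0.31, limma-voom adjusted p = 0.0305). Of 12 amylin relatives, receptor parts and degrading enzymes, 9 were tested, and at 8 weeks 4 were higher and 4 lower in β-cells. Among the higher ones were the membrane protease Bace2 (3.72, limma-voom adjusted p = 1.61e-10), the amylin relative Adm2 (2.59, limma-voom adjusted p = 1.27e-05) and the insulin-degrading enzyme Ide (0.92, limma-voom adjusted p = 0.000363). The 4 lower ones (Calca, Adm, Calcrl and Ramp3) passed the filter through the non-β-cells. The calcitonin receptor Calcr, the core of the amylin receptor, had at most 1 count in any sample. All 15 other receptor-type tyrosine phosphatases passed between the fractions at 8 weeks, 6 higher and 9 lower in β-cells, against 49.2% of all tested genes called, with Ptprz1 (-3.80, limma-voom adjusted p = 1.08e-08) and Ptprk (-4.49, limma-voom adjusted p = 5.54e-07) among the lower ones, whereas Ptprn and Ptprn2 did not pass there. Of the 9 lower ones, 3 (Ptprb, Ptpre and Ptpro) exceeded 1 CPM in no β-cell sample and entered the test only through the non-β-cells. With age in β-cells Ptprr alone among the 15 rose (0.63, limma-voom adjusted p = 0.0406).

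The median log2 difference between the fractions at 8 weeks was 0.49 for the tested genes of the glucose-6-phosphatase system, 0.09 for the zinc transporters, -0.07 for the granins and 0.19 for GABA synthesis, breakdown and transport, against 0.01 for all tested genes. It was -0.66 for the GABA receptors, 0.41 for the BAR domain relatives, -1.10 for the amylin list and -1.22 for the other receptor-type phosphatases. The GABA receptors, the amylin list and the phosphatases hold 1, 2 and 3 genes that exceeded 1 CPM in no β-cell sample. Calca and Adm in the amylin list also entered the test through non-β-cells. Their β-cell medians at 4 and 8 weeks were 0.407 and 0.603 CPM for Calca and 0.305 and 0.879 CPM for Adm. The direction of all these genes was thus set by the filter, which lowers the medians of their lists. The 6 endothelial and the 6 mesenchymal markers were all lower in β-cells at 8 weeks too, and their part in the low medians was not tested.

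**Figure D5:**
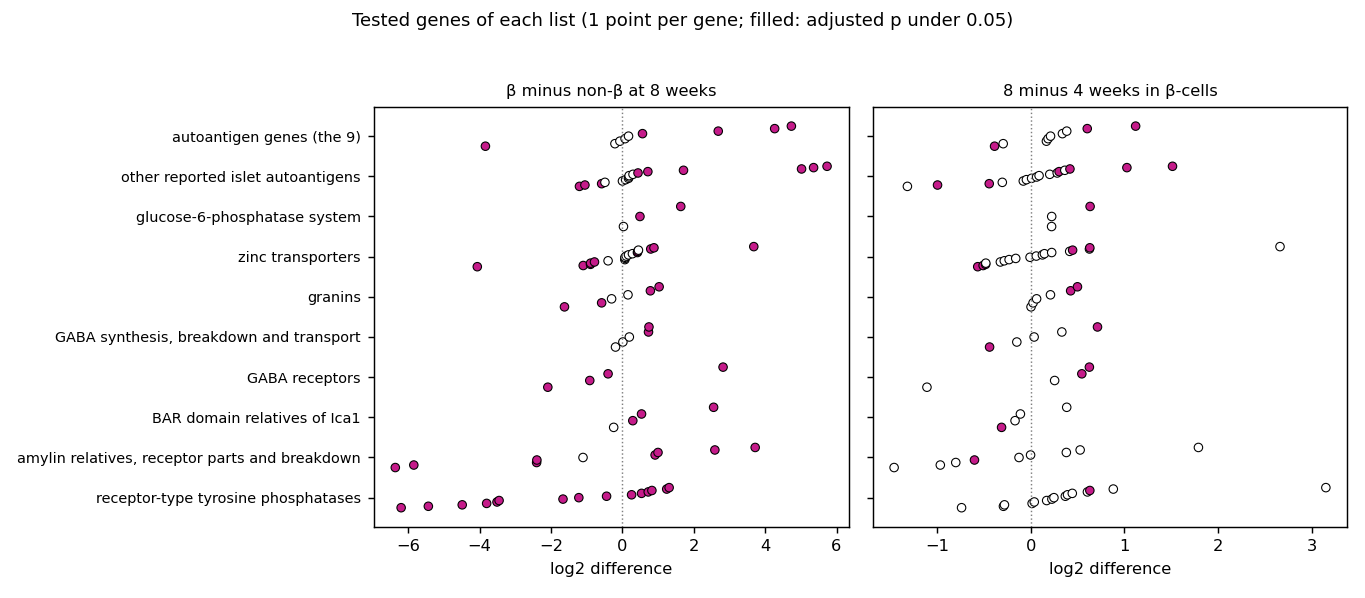
log2 differences (x axis) between fractions at 8 weeks (left) and between ages in β-cells (right) for the tested genes of each list (y axis), 1 point per gene, filled where the limma-voom adjusted p is under 0.05. The 9 autoantigen genes run from -3.84 (Gad2) to 4.73 (Gad1) on the left and from -0.39 (Ica1) to 1.12 (G6pc2) on the right.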

How the data were processed

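RNA of 12 sorted islet cell samples, 3 in each of 4 groups of fraction and age given by the labels, was measured with a strand-specific total RNA kit. The authors trimmed with fastp, quantified transcripts of GRCm38 with kallisto and summed them to genes. They deposited estimated counts per gene, neither scaled nor filtered, and 14% to 19.3% of a sample's values were not whole. Versions of fastp and kallisto are not given in the sources used here. Such counts are sums over transcripts, so they grow with transcript length and may be divided among similar genes.

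Here the counts were rounded, genes over 1 CPM in at least 3 samples were kept, and libraries were scaled by TMM (edgeR 4.0.16). limma 3.58.1 (voom, R 4.3.3) was fitted with 4 group means to all 12 samples, the study's own method, two-sided, with Benjamini-Hochberg adjustment. Symbols and positions were taken from GENCODE M21, in which 52002 of 52962 identifiers were found, and promoter sequences from RefSeq. The fit was tested on simulated data with known changes, the same dispersion for every gene and no outlying library. That test therefore does not cover the spread seen in the 4-week libraries or in non-β-cell replicate 1 of 8 weeks. The autoantigen genes, lists and tests were chosen with earlier results of these data known. The genes named were the 9, the 3 nearest of each by correlation, and up to 4 of each list by smallest adjusted p. G6pc, Slc32a1 and Calcr were named for their low counts after their values were seen. Genes named for how they passed the filter were also added after their values were seen. The labels do not say how the replicates arose, but the study's legends give them as biologically independent pools of 3 mice. The p-values measure the spread between these pooled samples. Alternatives were other normalizations, filters, tests (edgeR, DESeq2 1.42.0), samples and thresholds.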

Additional observations from a re-analysis of the deposited data

Results flagged for a closer look

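The age change of Ptprn differed between the fractions. From 4 to 8 weeks its difference in β-cells exceeded that in non-β-cells by 0.61 on the log2 scale (SE 0.13, 95% interval 0.32 to 0.90, limma-voom adjusted p = 0.0182). All 3 β-cell samples of 8 weeks were above all 3 of 4 weeks, and the non-β-cell ages overlapped. The estimate stayed between 0.53 and 0.65 in 21 alternative fits, and the call was lost in 4 of them, each a fit without 1 library.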

How the results depend on the processing

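No called difference changed sign in any alternative. Over the 9 genes, 961 alternative values were computed, of which 930 kept their direction or side of the threshold, 18 passed it newly and 13 no longer passed it.

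The 5 comparisons called 3, 1, 4, 5 and 1 of the 9 genes (age in β-cells, age in non-β-cells, fractions at 4 and at 8 weeks, age by cell type) and 2799, 2561, 7570, 7679 and 800 of all tested genes. For the age change in β-cells the count of the 9 was 6 without both 4-week samples numbered 3 and 1 with a 2-fold limit, which left 867 of all genes. For that in non-β-cells the count was 2 with DESeq2 (Gad1 added) and 2 without both samples, and 0 with the 2-fold limit, which left 1389 genes. The 2-fold limit left 3464 genes between fractions at 4 weeks and 3742 at 8 weeks. For the age by cell type term the count was 2 with DESeq2, with library totals, with the replicate block, without both samples and at a threshold of 0.10, G6pc2 being the gene added, and 0 with the 2-fold limit. All genes called for that term were 1562, 1944, 1468, 1246 and 469 with DESeq2, the replicate block, without both samples, at 0.10 and with the 2-fold limit.

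Leaving out 1 sample gave 2 to 4 of the 9 genes and 1695 to 3128 of all genes for age in β-cells, 1 to 1 and 1810 to 3195 for age in non-β-cells, 4 to 5 and 6485 to 7808 for fractions at 4 weeks, 4 to 5 and 6214 to 8478 at 8 weeks, and 0 to 2 and 455 to 979 for the age by cell type term. The order by level moved 4 genes with the longest transcript and 4 with the union of exons. The term was not refitted on fewer groups because it uses all 4. Except as stated, the cause was not tested.

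The labels link samples of different groups only by a replicate number, and do not say whether same-numbered fractions came from the same pool. Over all tested genes, same-numbered samples of 4 weeks deviated together with r from 0.08 to 0.31, and those of 8 weeks from 0.01 to 0.05, so not every pair exceeded 0.1; over genes with a mean log2 CPM of at least 3 the 4-week values were 0.29 to 0.67, and in neither age did every sample correlate best with its own number. With the replicate block Ica1 lost its age call in β-cells (adjusted p = 0.0550), and Chga at 4 weeks (0.0129), Ica1 at 8 weeks (0.0433) and G6pc2 in the age by cell type term (0.0234) passed. Gad2 had at most 34 counts in any sample, and each group has 3 samples.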
